A study of Mus musculus with 10 samples.

Results

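Cycling tubule epithelial cells were taken from single-cell RNA profiles of mouse kidney cortex as the cells that held mRNA of at least 2 of 6 proliferation genes together with mRNA of an epithelial gene. The 6 genes were Mki67, Top2a, Ube2c, Birc5, Cenpf and Cdk1. A cell also needed at least 1 unique molecular identifier (UMI, 1 counted mRNA molecule) of Cdh16, Epcam, Krt8, Krt18 or Havcr1, and none of the immune genes Ptprc and C1qb, the endothelial genes Pecam1 and Kdr, or the fibroblast gene Col1a1. The rule was applied to barcodes with 500 or more genes and no more than 50% of UMIs from mitochondrial genes. It found 987 cells among 52797, of which 29019 passed the tubule gate, meaning the epithelial and exclusion criteria without the proliferation genes. Another 26062 gated cells had none of the 6 genes and are called non-cycling here, and 1970 had exactly 1.

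The 10 Drop-seq libraries, each a droplet suspension counting the 3' ends of mRNAs per barcode, came from normal mouse kidneys in 1 library and from injured kidneys in 9. The injured kidneys were taken on days 1, 2 and 4 with 1 library each, and on days 7, 11 and 14 with 2 libraries each. All libraries carry the label kidney cortex and an age of 4 weeks. The labels used here do not give the kind of injury, the strain, the sex, the number of animals per library or any genetic change. Replicate libraries may therefore be technical, and p-values take in at most the spread between libraries. In the tests of genes that spread is in part shared over genes, and a group of 1 library adds none.

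Tubule epithelium divides rarely in an uninjured kidney. After acute injury, surviving tubule cells lose differentiated functions, re-enter the cell cycle and replace lost neighbours. Progress through the cycle is read from timed waves of transcription: E2F factors release the DNA replication genes for S phase, and the MuvB complex with B-MYB and FOXM1 then switches on genes of G2 and mitosis. In resting cells the DREAM complex, which shares MuvB, holds those genes down. Their promoters are known for elements named CHR and CCAAT. Mki67 coats mitotic chromosomes, Top2a untangles DNA, Cdk1 is the mitotic kinase, Ube2c supplies ubiquitin to the anaphase-promoting complex, Birc5 is part of the chromosomal passenger complex and Cenpf belongs to the kinetochore.

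The label was checked against 12 tubule genes outside the gate, such as Pax8, Cdh1, Cldn3, Fxyd2 and Atp1b1. Their summed level, as the mean over cells on the counts-per-million scale (CPM, a gene's UMIs relative to all UMIs of the cell or of the summed cells), was 5149 to 7561 in the cycling cells of the 10 libraries, 6792 to 9159 in non-cycling cells and 1862 to 5576 in cells carrying Ptprc or C1qb. As means over cells, the immune range overlapped that of the cycling cells at its upper end. With UMIs summed over cells the list did not separate the classes: immune cells were at 4190 to 9505 and stood above the cycling cells in 7 of 10 libraries. The 9 macrophage and monocyte markers outside the rule summed to 0.537 to 2227 in cycling cells, 6.61 to 1877 in non-cycling cells and 2127 to 21510 in the immune cells. Both tubule classes were highest in the first day 7 library, at 2227 in cycling and 1877 in non-cycling cells. Adgre1, the F4/80 macrophage antigen, had no UMI in any cycling cell, but every other marker of that list was detected. Lyz2 was in 19.3% of the cycling cells, Fcer1g in 5.67% and Tyrobp in 4.96%. In the first day 7 library 83.6% of cycling and 69.5% of non-cycling cells held at least 1 of these markers. A gate UMI alone is weak evidence of origin: 36.1 to 74.8% of immune cells per library also carried one, and 90 of the 987 cells passed on a single gate UMI.

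The promoters of the 6 proliferation genes are shown because the rule, and the genes described with it, turn on mitotic transcription. RefSeq sequences of build GRCm38.p6 were searched for CHR elements, spelled TTTGAA or else in the variant form TTTAAA, for the CCAAT box, spelled as its name, and for E2F sites (TTTCGCGC, TTTGGCGC or TTTCCCGC) on both strands, over 250 bases before the annotated start. The last 160 bases before the start follow for 5 of the 6 genes, 5' to 3' along the gene's strand. Capitals mark CHR and CCAAT matches. A CHR match on the other strand reads TTCAAA, or for the variant form the same letters again, while a CCAAT box on the other strand reads ATTGG. No matches overlap in these windows.
Mki67 promoter, chr7:135716380-135716539, minus strand: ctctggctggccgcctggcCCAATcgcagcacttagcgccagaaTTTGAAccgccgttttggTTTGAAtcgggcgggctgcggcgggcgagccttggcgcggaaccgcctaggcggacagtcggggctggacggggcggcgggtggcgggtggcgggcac
Top2a promoter, chr11:99024190-99024349, minus strand: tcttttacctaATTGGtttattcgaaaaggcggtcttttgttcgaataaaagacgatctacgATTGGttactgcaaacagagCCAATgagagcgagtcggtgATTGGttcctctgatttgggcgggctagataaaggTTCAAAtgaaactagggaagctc
Ube2c promoter, chr2:164769769-164769928, plus strand: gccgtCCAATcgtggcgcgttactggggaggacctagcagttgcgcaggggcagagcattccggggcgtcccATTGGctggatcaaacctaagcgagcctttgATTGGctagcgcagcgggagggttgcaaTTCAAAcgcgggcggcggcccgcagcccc
Cenpf promoter, chr1:189688087-189688246, minus strand: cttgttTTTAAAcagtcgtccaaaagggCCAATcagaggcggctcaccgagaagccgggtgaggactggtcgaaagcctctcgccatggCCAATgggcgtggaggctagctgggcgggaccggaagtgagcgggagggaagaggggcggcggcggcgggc
Cdk1 promoter, chr10:69352913-69353072, minus strand: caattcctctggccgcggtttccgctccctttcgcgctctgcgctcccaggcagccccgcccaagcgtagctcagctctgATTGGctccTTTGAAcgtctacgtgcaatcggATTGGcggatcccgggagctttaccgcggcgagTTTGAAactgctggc
Each of the 5 holds at least 1 CHR and at least 1 CCAAT match in the letters shown. Top2a has 1 CHR and 4 CCAAT matches there, with the nearest CHR 23 bases before the start. Birc5 has 1 CHR match, 220 bases before the start and outside such a window, and no CCAAT match. A CHR match was present in 6 of the 6 genes, in 21 of the 45 G2 and mitosis genes with a RefSeq promoter, in 7 of 30 S-phase genes and in 28.1% of all 27025 genes. CHR and CCAAT occurred together in 5 of 6, in 20 of 45, in 4 of 30 and in 10.1%, respectively. E2F sites were most frequent in the S-phase list, with 9 of 30, against 1 of 6 (Cdk1), 1 of 45 and 1.78% of all genes. These letters are a description of the windows, and binding was not measured.

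Most cycling cells were found through Mki67, with a UMI in 75.4% of them, and Top2a, in 67.9%. Cenpf was detected in 59.7%, Birc5 in 58.5%, Cdk1 in 37.9% and Ube2c in 34.7%. On the epithelial side Krt8 led with 78.6%, followed by Cdh16 with 74.2%, Havcr1 with 60.6%, Epcam with 45.4% and Krt18 with 43.4%. The cells were chosen by these measured values, which are given as a description with no test. Havcr1, the injury receptor KIM-1, was in cycling cells, in CPM, at 0 in the control, 3103, 961 and 2943 on days 1, 2 and 4, 821 and 639 in the day 7 libraries, 38 and 0 in those of day 11, and 0 and 0 in those of day 14. In non-cycling cells it was 2.05 in the control, 739.8, 32.7 and 753 on days 1, 2 and 4, 1185 and 523 in the day 7 libraries, 9.32 and 4.67 in those of day 11, and 3.63 and 4.86 in those of day 14. It was at 0 in the cycling cells of 4 libraries, so that the gate read other genes there. Exactly 2 proliferation genes were detected in 402 cells, just inside the threshold, and 3, 4, 5 and 6 genes in 209, 138, 115 and 123 cells.

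Other cycle genes, outside the rule, followed the number of rule genes detected. A list of 54 further G2 and mitosis genes summed to 1622 to 2399 CPM across libraries in cells with no rule gene, 1678 to 2614 with 1, just outside the threshold, 1448 to 7854 with 2 and 7322 to 13888 with 3 or more. The lowest of the cells with 2 genes were those of the control library, at 1448, below the range of cells with none, in 7 cells. A list of 40 S-phase genes summed to 331 to 911, 377 to 1503, 578 to 3068 and 2479 to 5058 in the same order. Cells with 3 or more rule genes stood above cells with 0 or 1 in all 10 libraries on both lists, while cells with 2 spread between them.

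**Figure D1:**
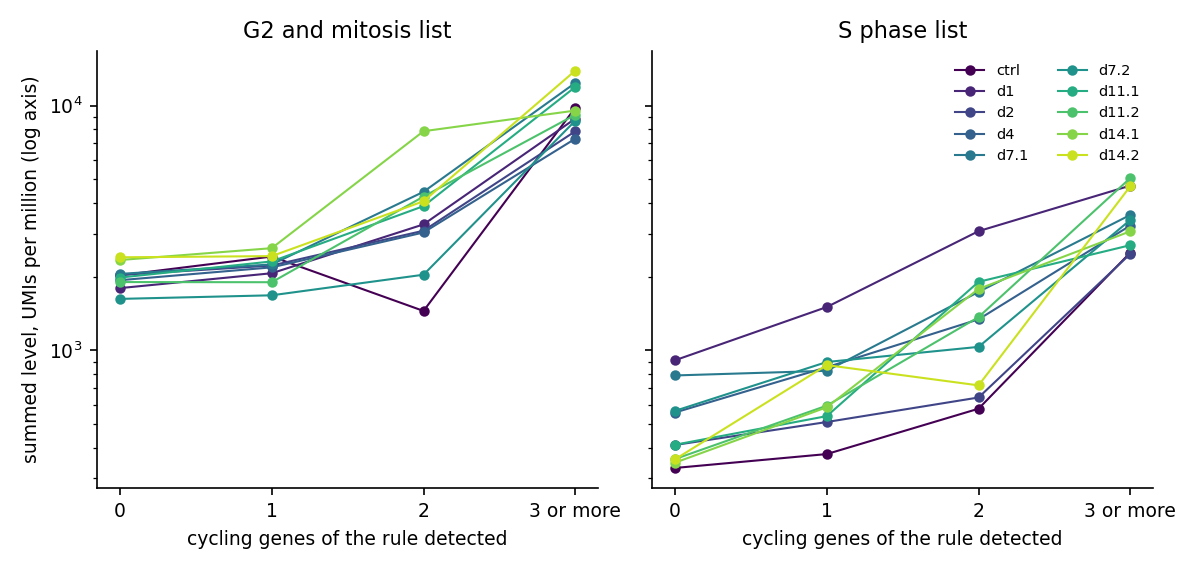
Summed levels of the 54 G2 and mitosis genes (left) and the 40 S-phase genes (right) outside the rule, in CPM on a log axis, against the number of the 6 rule genes detected in tubule-gated cells. Each line is 1 library, and every line is highest at 3 or more genes.

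Among the 987 cells, 800 held more UMIs of the G2 and mitosis list than of the S-phase list, 157 held more of the S-phase list and 30 had equal numbers. The genes of the rule are themselves mostly G2 and mitosis genes. The G2 and mitosis list also led in non-cycling cells, so the split by itself does not measure phase. The ratio of S-phase to G2 and mitosis UMIs, summed over cells, was 0.149 to 0.507 across libraries in non-cycling cells. In cycling cells it was 0.253 to 0.58, above that of non-cycling cells in every library but the first of day 7. Day 1 had the highest ratio in both classes. The percentage with more S-phase UMIs was 15 in the control, 24.7, 6.21 and 15.4 on days 1, 2 and 4, 11.5 and 19 in the day 7 libraries, 0 and 22.2 in those of day 11, and 10.7 and 7.14 in those of day 14. Day 1 had the highest value and the first day 11 library the lowest, and the 2 day 11 libraries, of 19 and 9 cells, spanned nearly the whole range.

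Depth differed between libraries and between classes. Libraries held 7091848 to 31632205 UMIs. The median cycling cell had 1590 to 5770 UMIs, which was 0.922 to 2.75 times that of non-cycling cells. Scrublet's automatic threshold marked at most 0.111% of cells of any library, so it had not worked, and the highest 5% of scores were used instead in alternatives; they held 41 of the 987 cells, 5 of them among the 20 of the control. Single large cells weigh on summed counts: the largest held 29.9% of the cycling UMIs in the control, 45.4% in the second day 11 library and 32.7% in the first day 14 library. Across libraries 62 barcodes recurred, and 2 of them belonged to a cycling cell in 1 library, none in both. Within libraries, 2 groups of cycling barcodes shared their first 11 bases.

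As a background, cells with podocyte mRNA (a filtration cell that seldom divides) were read by the same 2-gene rule. Of 752 such cells 6 met it, or 0.798% (95% Clopper-Pearson interval 0.293 to 1.73%, counting error only), at a median of 1386 UMIs against 3788 in cycling cells. They were 3 of 66 on day 1 (4.55%, 0.947 to 12.7%), 1 of 29 (3.45%, 0.0873 to 17.8%) and 2 of 47 (4.26%, 0.520 to 14.5%) on day 7, and none elsewhere. Podocyte cells numbered only 42 on day 2 and 14 on day 4. On day 1, 30.3% of podocyte cells and 27.5% of tubule-gated cells had at least 1 of the 6 genes. A neutrophil gate gave 3 of 58 cells (5.17%, 1.08 to 14.4%) at a median of 1115 UMIs. The podocyte gate was preferred after both values had been seen.

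The share of cycling cells among tubule-gated cells was highest in the libraries of days 1 to 4 and lowest in the control and on days 11 and 14. It was 0.618% in the control (20 of 3238 cells, 95% Clopper-Pearson interval 0.378 to 0.952%), 9.38% on day 1 (243 of 2590, 8.29 to 10.6%), 5.91% on day 2 (145 of 2453, 5.01 to 6.92%) and 8.09% on day 4 (364 of 4502, 7.31 to 8.92%). The 2 libraries of day 7 gave 3.71% (61 of 1644) and 3.92% (84 of 2142). Day 11 gave 0.834% (19 of 2279) and 0.372% (9 of 2421), and day 14 gave 0.709% (28 of 3949) and 0.368% (14 of 3801). These intervals cover the counting of cells within a library only, and the control and days 1, 2 and 4 are 1 library each, so their order was not tested. The reach of the gate changed with the days too. Of cells with neither Ptprc nor C1qb, 86.6, 73.8 and 87.4% held a gate UMI on days 1, 2 and 4. It was 82.8 and 76.3% on day 7, 55.7% in the control, 45 and 48.5% on day 11, and 59 and 64.1% on day 14. The part of the gate in the shares was not tested. In every library the interval of the podocyte background includes the cycling share. On day 2 that interval was 0 to 8.41% and on day 4 it was 0 to 23.2%.

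As mean ± SD over 2 libraries (n = 2), day 7 had 3.82 ± 0.149% cycling cells, day 11 had 0.603 ± 0.327% and day 14 had 0.539 ± 0.241%. Both day 7 libraries were above all 4 later ones. The difference of day 7 from day 11 was 3.21 percentage points (exact permutation test, two-sided, p = 0.333) and from day 14 it was 3.28 (exact p = 0.333), the smallest p that 2 against 2 libraries can give, with Benjamini-Hochberg values of 0.50 over the 3 comparisons. Days 11 and 14 overlapped, with a difference of 0.064 (exact permutation p = 0.667, Benjamini-Hochberg value 0.667). With every cell thinned to 1000 UMIs and shallower cells left out, the shares were 0.458 in the control, 6.41, 3.34 and 4.05 on days 1, 2 and 4, 3.17 and 2.28 in the day 7 libraries, 0.391 and 0.132 in those of day 11, and 0.13 and 0.212 in those of day 14, in percent. Thinning left out 90 to 914 tubule-gated cells per library as too shallow. The gate was applied again to the thinned cells, so the shares rest on fewer gated cells, 1748 in place of 3238 in the control and 1199 to 3287 over all libraries, and on 2 to 133 cycling cells. The order of the group means did not change, and each value was lower than without thinning.

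**Figure D2:**
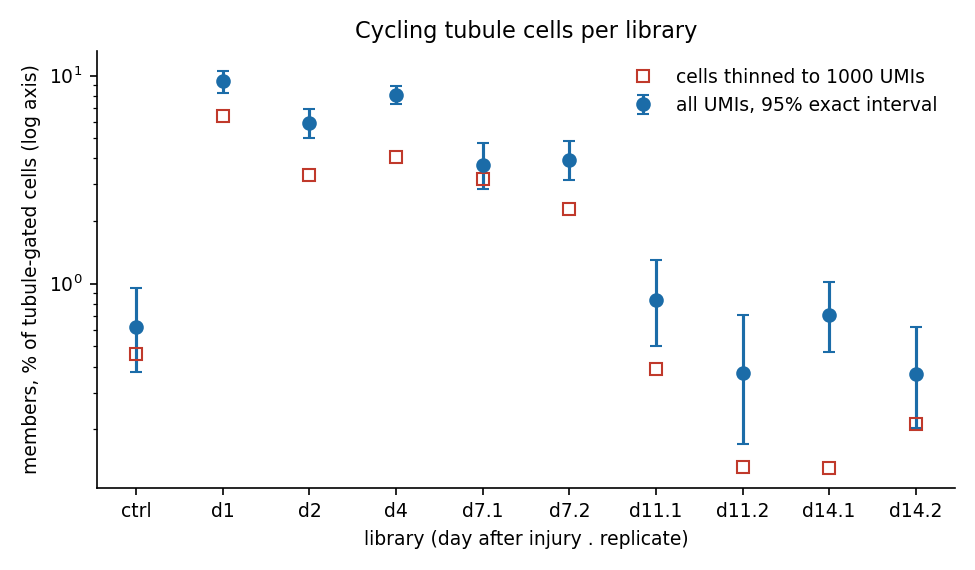
Cycling cells as a percentage of tubule-gated cells in each library on a log axis, with 95% exact binomial intervals (circles) and after thinning each cell to 1000 UMIs (squares). Libraries of days 1, 2 and 4 lie between 5.91 and 9.38%, those of day 7 near 3.82% and all others below 1%.

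Markers of several nephron segments were present in the cycling cells. The 12 proximal tubule markers, which include the phosphate transporter Slc34a1, the endocytic receptors Lrp2 and Cubn and the organic anion transporters Slc22a6 and Slc22a8, had a mean over cells, in CPM, of 2159 in the control, 2163, 4612 and 1695 on days 1, 2 and 4, 694 and 438 in the day 7 libraries, 5163 and 8031 in those of day 11, and 6926 and 7109 in those of day 14. Non-cycling cells of the same libraries gave 5811 in the control, 1296, 6259 and 4281 on days 1, 2 and 4, 1096 and 1470 in the day 7 libraries, 9357 and 10110 in those of day 11, and 9196 and 10270 in those of day 14. By this mean, cycling cells were lower in 9 of 10 libraries and higher on day 1. The share of cells with at least 1 UMI of these markers ran the other way, being higher in cycling than in non-cycling cells in 8 of 10 libraries, and in 7 of 10 with each cell thinned to 1000 UMIs. The mean gave the same directions against non-cycling cells chosen to match in UMI count, whose day 1 value was 1317. Day 1 is 1 library, and the difference in direction was not tested.

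Thick ascending limb markers (Umod, Slc12a1 and 3 others, genes of the salt-reabsorbing limb) were at 219 to 2384 in cycling cells against 1066 to 3724 in non-cycling cells, and were lower in the cycling cells of 9 libraries, the first day 7 library being the exception. With UMIs summed over cells, cycling cells were also higher in the control (6822 against 4521) and in the first day 14 library (8008 against 2323), where 1 cell held 32.7% of the cycling cells' UMIs. Collecting duct principal markers, among them the water channels Aqp2 and Aqp3, were at 463 to 3940 against 1539 to 2848 as means over cells. Cycling cells were higher in the control and the second day 14 library, on this scale and with UMIs summed. The direction turned with the scale in 3 libraries: summed, both classes were close on day 7 (2720 against 2684 and 2576 against 2659), and the second day 11 library, of 9 cells, was at 5334 against 1881. Intercalated cell markers were at 71.6 to 2060 against 331 to 799; the control stood highest at 2060, in 20 cells, but summed over cells the second day 11 library did, at 2499 against 1239 in the control. None of these 4 lists was at 0 in the cycling cells of any library. Immune cells carried the lists too, so presence alone does not assign a cell to a segment. As means over cells they held thick limb markers at 483 to 4689 and principal markers at 860.5 to 5294. For intercalated markers it was 157 to 1102, and for proximal markers 281 to 4633. Proximal markers were higher in cycling than in immune cells of every library. The direction differed between libraries for the other lists.

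**Figure D3:**
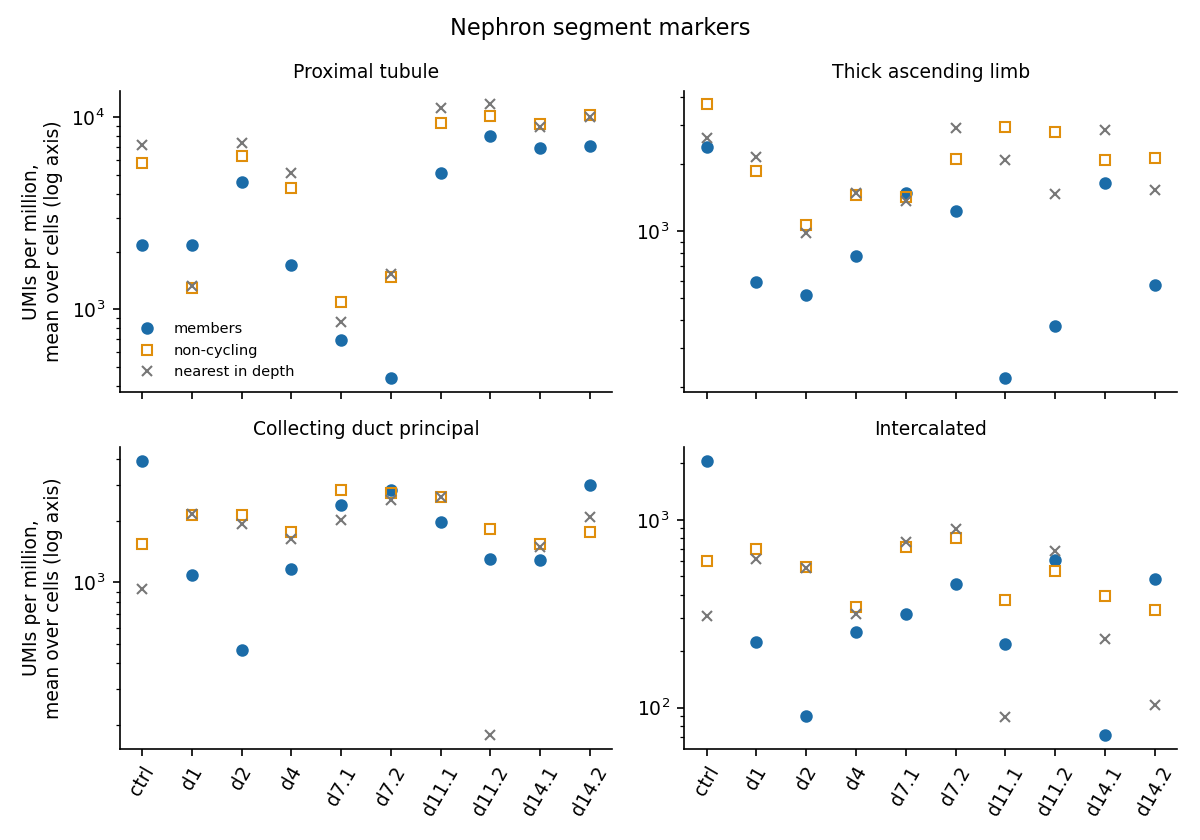
Mean over cells of the summed CPM of 4 nephron segment lists, on log axes, in each library for cycling cells (filled circles), non-cycling cells (open squares) and the non-cycling cells nearest in UMI count (crosses). Proximal markers of cycling cells lie under those of non-cycling cells in all libraries but day 1.

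Counts were then summed per library and class and cycling cells compared with non-cycling cells of the same library (edgeR quasi-likelihood test with library as a block, 7 libraries with at least 20 cycling cells: control, days 1, 2 and 4, both of day 7 and the first of day 14). This contrast is the one the rule used, so its calls are a description. Of 13601 genes, 1309 or 9.62% passed the adjusted threshold of 0.05, with 705 (5.18%) higher and 604 (4.44%) lower, and the median gene had a log2 change of -0.09. The number called was 839 without day 2 and 603 without day 4, the libraries with 145 and 364 of the cells. All 40 S-phase genes tested were higher, with a median log2 change of 2.37, and 53 of 54 G2 and mitosis genes, with a median of 4.45. Of 20 chromatin and tubulin genes of growing cells, 18 were higher, with a median of 1.12.

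The widest difference upward was that of Pbk, a mitotic kinase, at 54.4 to 270.4 CPM in cycling cells and 0.134 to 2.37 in non-cycling cells over the 7 libraries (log2 change 6.55, SE 0.49). Hmmr, a spindle protein, ranged over 123 to 501 CPM in cycling cells and 0.277 to 7.32 in non-cycling cells (6.17, SE 0.51). Cdc20, the activator of the anaphase-promoting complex, ranged over 119.8 to 482 CPM in cycling cells and 0.664 to 8.51 in non-cycling cells (5.99, SE 0.40). For these 3 genes the classes did not overlap in the 7 libraries. Ccnb2 (cyclin B2), Prc1 (which bundles midzone microtubules) and Nusap1 (a spindle protein) followed, with log2 changes of 5.64 for Ccnb2 and 5.45 for Nusap1, and Rrm2, the nucleotide reductase subunit of S phase, with 4.64. The remaining genes by the same ranking were 2810417H13Rik, Tpx2, Cenpe, RP23-45G16.5 and Cdca8.

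Among 26 cyclins, CDKs and their regulators 13 were higher and 1 lower, with a median log2 change of 0.90. Higher were the mitotic transcription factor Foxm1 (4.11), the repressors E2f7 (3.26) and E2f8 (3.94), E2f1 (2.39), the phosphatase Cdkn3 (5.57), the INK4 inhibitors Cdkn2c (1.05) and Cdkn2d (2.07), and Cdk2 and Cdk4. The 1 lower gene was Cdkn1c, the inhibitor p57, with -1.94 (SE 0.42), a call lost in comparisons limited to cells of 2000 UMIs or matched in depth. None of 16 p53 targets passed the threshold in either direction, with a median of 0.07. The p53 target Cdkn1a, the inhibitor p21, was, in CPM of cycling cells, at 18.4 in the control, 88.7, 68.9 and 122 on days 1, 2 and 4, 129 and 199 in the day 7 libraries, 19 and 0 in those of day 11, and 14.7 and 70.8 in those of day 14. Its log2 change against non-cycling cells was 0.04 (SE 0.20).

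**Figure D4:**
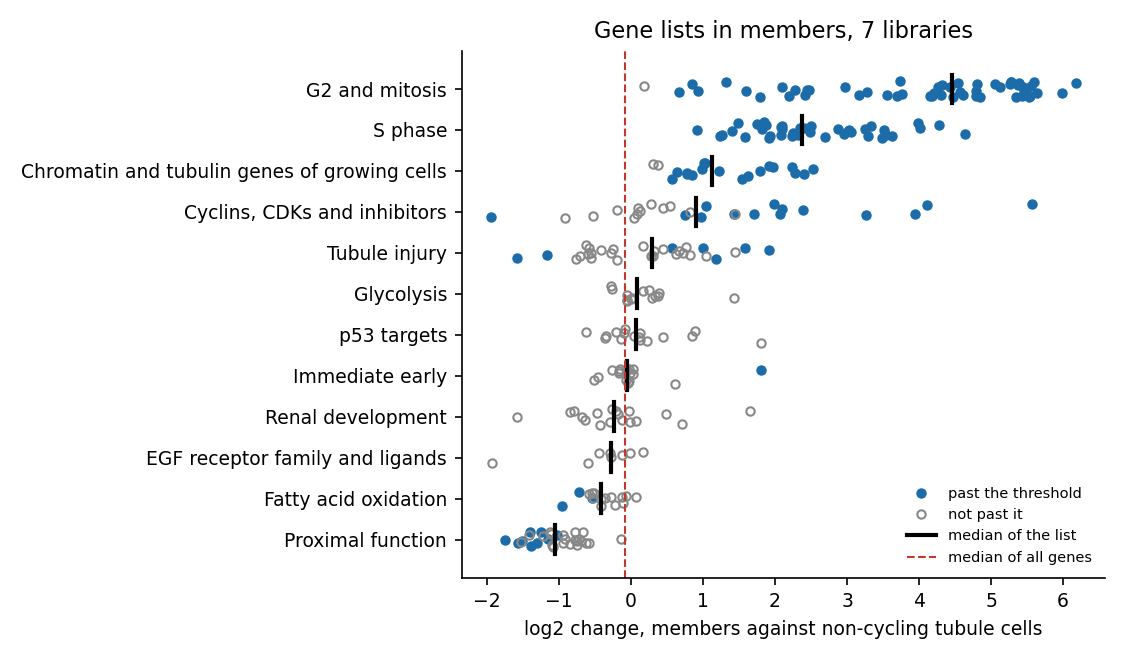
Log2 change of each tested gene of 12 lists between cycling and non-cycling tubule cells within 7 libraries. Filled points passed the adjusted threshold, bars are list medians and the dashed line is the median of all genes at -0.09; the medians of the S-phase, G2 and mitosis, and chromatin and tubulin lists lie above 1.

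Outside the cycle genes, cycling cells carried more of some injury genes and less of proximal function. Of 30 tubule injury genes 5 were higher and 2 lower, with a median of 0.29. The higher ones were the calcium-binding S100a6 (1.92), the intermediate filament Vim (1.58), the chemokine Cxcl1 (1.18), the galectin Lgals1 and the actin-binding Tmsb10 (0.57). Clu, a secreted chaperone, was lower (-1.17), as was Sprr2f (-1.58). S100a6 and Vim passed under all 18 alternatives, while each of the other 5 lost its call in at least 6. Of 30 proximal function genes 9 were lower and none higher, with a median of -1.06, among them Slc34a1 (-1.41), the gluconeogenic enzymes Pck1 (-1.57) and Fbp1 (-1.15), and Miox (-1.39). That count fell to 1 without day 4 and reached 27 without day 1, the library in which proximal markers ran the other way.

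In CPM, Vim was in cycling cells 23 in the control, 114, 269 and 469 on days 1, 2 and 4, 208 and 366 in the day 7 libraries, 38 and 37.3 in those of day 11, and 4.92 and 0 in those of day 14. In non-cycling cells it was 2.71 in the control, 71.9, 47.3 and 95.4 on days 1, 2 and 4, 126 and 126 in the day 7 libraries, 11.8 and 11.2 in those of day 11, and 2.01 and 2.68 in those of day 14. Both classes were higher on days 1 to 7 than in the control and on days 11 and 14. S100a6 was in cycling cells 0 in the control, 2799, 3685 and 5265 on days 1, 2 and 4, 2384 and 2188 in the day 7 libraries, 171 and 224 in those of day 11, and 0 and 0 in those of day 14. In non-cycling cells it was 3.15 in the control, 887, 374 and 900.2 on days 1, 2 and 4, 750.2 and 819.9 in the day 7 libraries, 86.2 and 31.7 in those of day 11, and 2.01 and 6.13 in those of day 14. It too was high on days 1 to 7 in both classes. S100a6 had no UMI in the cycling cells of the control and of both day 14 libraries. Distal genes were among the lowest: Slc12a3, the distal convoluted tubule salt transporter, had a log2 change of -2.55 (SE 0.46), Slc26a4, the chloride exchanger of intercalated cells, -2.69 (SE 0.38), and the calcium-binding S100g and Calb1 -2.06 and -1.84. The globin genes Hbb-bs, Hba-a1 and Hba-a2, and Pigr, Rnase4, Tmem52b, Lyz2 and Fgg, completed the 12 largest differences downward. Red cells were not excluded by the gate.

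The cycling cells of day 7 were compared with those of the control, the 1 comparison between groups in which every library had at least 20 cells. Injury genes were higher and proximal function genes lower. The gene lists were chosen with earlier results of these data known, so their counts are a description here and below. The median mitochondrial share of UMIs in cycling cells moved with the days too, at 20.1% in the control, 3.84 and 4.5% in the day 7 libraries, 15 and 8.72% in those of day 11, and 16.2 and 23% in those of day 14, and its part was not tested. The 30 injury genes summed in cycling cells, as a mean over cells in CPM, to 3108 in the control, 18520, 17280 and 28330 on days 1, 2 and 4, 26410 and 30630 in the day 7 libraries, 3987 and 2655 in those of day 11, and 992 and 2229 in those of day 14. They were high on days 1 to 7 and low in the control and on days 11 and 14, without overlap. Non-cycling cells gave 1596 in the control, 35610, 16000 and 19290 on days 1, 2 and 4, 27560 and 28260 in the day 7 libraries, 3989 and 3176 in those of day 11, and 1685 and 1906 in those of day 14, the same division of days. The 30 proximal function genes summed to 23350 in the control, 18310, 27670 and 12700 on days 1, 2 and 4, 2870 and 2970 in the day 7 libraries, 33320 and 65940 in those of day 11, and 56460 and 46320 in those of day 14 in cycling cells. Non-cycling cells gave 52120 in the control, 11380, 34370 and 34430 on days 1, 2 and 4, 7062 and 10410 in the day 7 libraries, 64690 and 75990 in those of day 11, and 75860 and 72110 in those of day 14. Day 7 was lowest in both classes. Cells carrying Ptprc or C1qb moved with the same days. Their proximal function sum was 18020 in the control and 3436 and 2575 on day 7. It was 23570 and 36630 on day 11, and 22460 and 18940 on day 14. Their injury sum was 3104 in the control and 28260, 18280 and 17620 on days 1, 2 and 4. It was 16070 and 12820 on day 7, and 4857 to 5731 later. The change was thus not particular to tubule cells, and its cause was not tested.

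**Figure D5:**
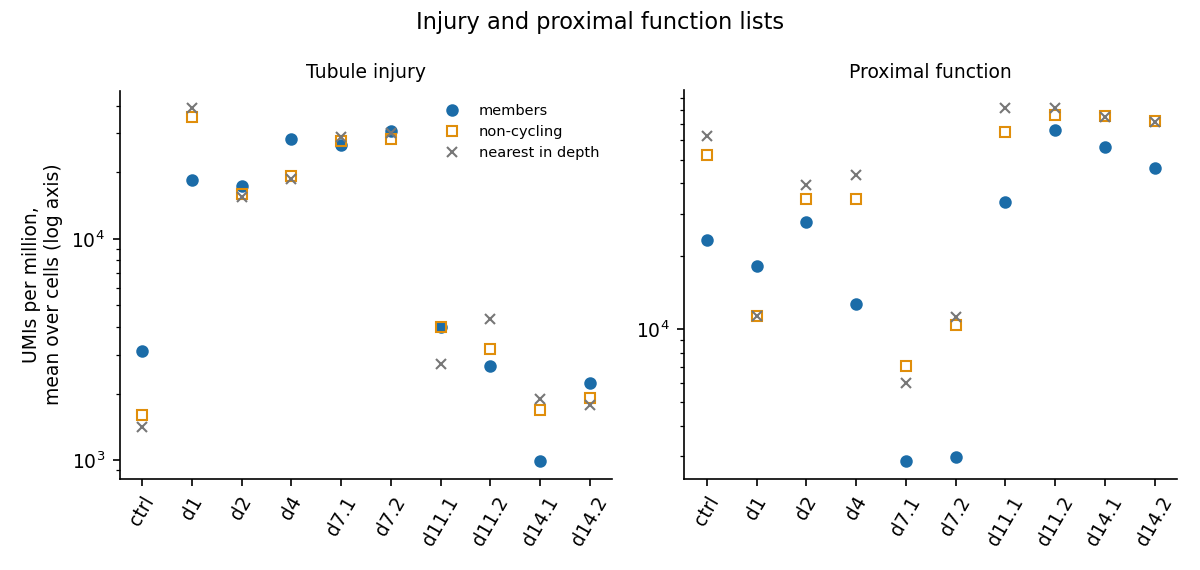
Mean over cells of the summed CPM of the injury list (left) and the proximal function list (right), on log axes, in each library for cycling cells, non-cycling cells and the non-cycling cells nearest in UMI count. Cycling and non-cycling cells show the same division of days: injury genes are high on days 1 to 7, and proximal function genes are lowest on day 7.

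In the edgeR test 485 of 10828 genes, or 4.48%, passed (226 higher, 2.09%; 259 lower, 2.39%; median log2 change of all genes 0.10), and 21 of 30 injury genes were higher and none lower, with a median of 4.73. The control is 1 library of 20 cells, so library and group cannot be told apart. The fit has 1 residual degree of freedom, taken from the 2 libraries of day 7. Its p-values lean on a spread shared over genes, so their size does not measure how well a change would repeat. DESeq2 called 111 genes in place of 485, cells thinned to at most 5000 UMIs gave 213, and a fit of all 10 libraries gave 320, or 146 without the second day 7 library. Spp1, osteopontin, was, in CPM, at 1313 in the control, 6142, 4732 and 8717 on days 1, 2 and 4, 8248 and 14986 in the day 7 libraries, 1290.4 and 2313 in those of day 11, and 1032 and 601 in those of day 14 (log2 change 2.83, SE 0.38, adjusted p = 4.2e-11). Clu was at 203 in the control, 1439, 812 and 1832 on days 1, 2 and 4, 8406 and 5336 in the day 7 libraries, 531 and 74.6 in those of day 11, and 54.1 and 195 in those of day 14 (log2 change 4.75, SE 0.48, adjusted p = 4.8e-20). Both genes were lower in the control than in either day 7 library, and their calls held in all 11 alternatives run.

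Several of the widest differences were against no UMI in the control. Lcn2, the injury marker NGAL, was at 0 in the control, 489, 159 and 491 on days 1, 2 and 4, 1696 and 1551 in the day 7 libraries, 19 and 821 in those of day 11, and 9.83 and 0 in those of day 14, at least 114-fold higher on day 7 when 3 counts over the group stand for the control's 0. S100a6 was at least 161-fold higher, Ubd (a ubiquitin-like modifier induced by inflammation) at least 67.8-fold, H2-Eb1 (an MHC class II chain) at least 54.1-fold, Vcam1 (an adhesion molecule) at least 34.7-fold and Gbp2 (an interferon-induced GTPase) at least 33-fold. C3 (the complement component) was at least 28.5-fold higher, Cxcl1 27.9-fold, H2-Q7 25.9-fold, the monocyte chemokine Ccl2 25.7-fold, Tgtp2 25.3-fold and Lyz2 15.2-fold. H2-Eb1 and Lyz2 are also genes of myeloid cells, whose 9 markers were at 2227 and 608 in these day 7 cells against 24.7 in the control, and the 6 lymphoid markers at 87.2 and 173 against 13.4. Their part in the difference was not tested.

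Of 29 proximal function genes 18 were lower on day 7 and none higher, with a median log2 change of -2.60. Kap, the androgen-regulated kidney protein, was, in CPM, at 12045 in the control, 3615, 4936 and 4587 on days 1, 2 and 4, 49.4 and 257 in the day 7 libraries, 12334 and 16600 in those of day 11, and 22604 and 18203 in those of day 14 (log2 change -6.46, SE 0.35, adjusted p = 8e-70). Pck1 was at 253 in the control, 77.5, 327 and 83.8 on days 1, 2 and 4, 0 and 2.55 in the day 7 libraries, 398 and 485 in those of day 11, and 221 and 318 in those of day 14 (log2 change -7.20, SE 0.76, adjusted p = 2.5e-18). Slc34a1 was at 359 in the control, 461, 1671 and 270.2 on days 1, 2 and 4, 84.1 and 56 in the day 7 libraries, 1025 and 1306 in those of day 11, and 1160.2 and 1787 in those of day 14 (log2 change -2.75, SE 0.45, adjusted p = 1.5e-07). Each was lower in both day 7 libraries than in the control and in the later days. Egf, the growth factor made in the distal nephron, was at 2496 in the control, 2.26, 1.85 and 5.74 on days 1, 2 and 4, 14.8 and 6.37 in the day 7 libraries, 19 and 37.3 in those of day 11, and 2571 and 354 in those of day 14 (log2 change -8.50, SE 0.53, adjusted p = 9.1e-53). Thick limb markers, summed in the same way, moved with it, at 6822 in the control, where 1 cell held 29.9% of UMIs, and 1993 and 778 on day 7, and their part was not tested. The remaining named genes were Ces1f, which had no UMI in either day 7 library and was at least 53.1-fold lower, and Akr1c18, Acsm3, Slc22a30, Ugt3a2, Slc7a13, Dnase1 and Slc22a28. Igha met the rule too, but its control UMIs came from 1 cell rich in immunoglobulin mRNA. That cell held 504 immunoglobulin UMIs, passed on 1 gate UMI and was kept in the main fits. So was a day 1 cell with 379 immunoglobulin UMIs and 1 gate UMI.

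Of 40 S-phase genes 3 were higher on day 7 than in the control and none lower. Of 54 G2 and mitosis genes 1 was higher and none lower. Over all genes 2.09% were called higher, so counts this small do not show that cycle genes changed less than others. Their medians were 0.87 and 0.40, against 0.10 for all genes. Cdkn1a was higher (log2 change 2.87, SE 0.77, edgeR adjusted p = 0.0071), a call lost in 3 of the 10 alternatives that gave an adjusted p. Myc also passed but was lost in 8 of those 10. Injury genes higher than in the control numbered 13 to 21 over the alternatives, and proximal function genes lower 6 to 19, the 6 without the highest 5% of doublet scores.

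On days 11 and 14 the cycling cells carried lower injury genes and higher proximal function genes than on day 7. These comparisons share the day 7 libraries and rest on libraries of 9 to 28 cells, with 5 cells required per library, a minimum chosen after the cell numbers were seen. On day 11, 287 of 6592 genes or 4.35% passed against day 7 (147 higher, 2.23%; 140 lower, 2.12%; median -0.29; 135 genes without the first day 11 library, 179 and 178 without the first and second of day 7), and 18 of 30 injury genes were lower (median -2.95) and 23 of 29 proximal function genes higher (median 3.37). On day 14, 725 or 11% passed (412 higher, 6.25%; 313 lower, 4.75%; median -0.07; 200 genes without the first day 14 library and 357 without the second of day 7), and 26 of 30 injury genes were lower (median -5.55) and 27 of 29 proximal function genes higher (median 3.38). Over the alternatives the injury genes lower numbered 4 to 20 on day 11 and 17 to 26 on day 14, and the proximal function genes higher 18 to 25 and 21 to 27. The mix of segment markers in the cycling cells differed too. A principal cell marker was in 59 and 67.9% of them in the day 7 libraries, against 11.1 to 35.7% in the later libraries. For a proximal tubule marker it was 44.3 and 38.1% against 94.7 to 100%. As a mean over cells, principal markers in the second day 14 library (3009 CPM) stood above both day 7 libraries (2388 and 2844). Other cells shifted too. A proximal marker was in 42.2 and 41.6% of non-cycling cells on day 7 against 87.7 to 94.7% later. In immune cells it was 26.4 and 18.8% against 76.2 to 80.7%. A principal marker was in 55.6 and 51.8% of non-cycling cells on day 7 against 23.3 to 37.8% later. In immune cells it was 45.5 and 32.3% against 19.4 to 49%. The part of these shifts was not tested.

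Kap, with the levels given above, was higher on day 11 (log2 change 6.40, SE 0.47) and on day 14 (7.25, SE 0.49; edgeR adjusted p = 2.1e-38 and 3.1e-46). Slc22a6, the organic anion transporter OAT1, was, in CPM, at 143 in the control, 203, 260.2 and 127 on days 1, 2 and 4, 4.94 and 3.82 in the day 7 libraries, 133 and 187 in those of day 11, and 605 and 689.9 in those of day 14, and its log2 changes were 5.17 and 7.53. Vim fell by 2.94 and 5.90 on the log2 scale and Clu by 4.27 and 5.79. The call of Vim on day 11 was lost in 6 of 13 alternatives. For Kap, Slc22a6, Vim and Clu all 4 later libraries lay on the same side of both day 7 libraries. Lcn2 was less uniform on day 11, where the second library, of 9 cells, held 821 in 11.1% of its cells and the first 19. Compared with day 7, S100a6 had no UMI on day 14 and was lower by at least 193-fold, Ubd at least 81.2-fold and Ccl5, a chemokine of T cells, at least 60.2-fold lower. Immune markers moved with these genes in the same cells: with UMIs summed, lymphoid markers were at 29.7 and 43.3 on day 7 and had no UMI on day 14, and macrophage markers were at 1167 and 192 against 4.92 and 35.4. Their part was not tested. On day 14, 8 of 13 immediate early genes were lower than on day 7 (Atf3, Egr1, Ier2, Ier3, Junb, Jund, Klf6 and Zfp36), and 2 to 8 over the alternatives, with 2 without the second day 7 or without the first day 14 library. Egf was higher on day 14 (7.77, SE 0.57, edgeR adjusted p = 1.7e-38), with 2571 in the first and 354 in the second library. Thick limb markers, summed in the same way, were at 8008 and 743 in those libraries against 1993 and 778 on day 7, above both day 7 libraries in the first and below both in the second. Their part was not tested.

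Non-cycling cells moved with the days too, so the difference between the classes was itself compared between day 7 and days 11 and 14 (edgeR interaction term, 6 libraries). Of 12005 genes 39, or 0.325%, passed, with 6 higher and 33 (0.275%) lower on day 7, and 862 at an unadjusted p under 0.05 (median of all genes 0.22). None of 30 injury genes was among them, and 0 to 3 were higher and 0 to 1 lower over the alternatives. With 0.325% of all genes passing, no call among 30 does not set the list apart. Its median was 0.62, against 0.22 for all genes, with a positive change for 23 of the 30. Of 30 proximal function genes 4 were lower, with a median of -0.63 (0 to 9 over the alternatives, 0 without the second day 7 library). Of 54 G2 and mitosis genes 1 was higher and 7 were lower, with a median of -1.42 (1 to 11 lower over the alternatives, 1 without the second day 7 library), and of 40 S-phase genes 1 was lower. Without the second day 7 library 6 genes passed in all, and without the first 19.

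Day 14 was also compared with the control. Of 6592 genes 60, or 0.91%, passed (20 higher, 0.303%; 40 lower, 0.607%; median 0). Markers of other segments differed between these groups: 55% of the control's cycling cells held a principal cell marker and 60% an intercalated one, against 28.6 and 35.7%, and 25 and 21.4%, in the day 14 libraries. Their part in the changes was not tested. Proximal function genes were higher for 7 of 29 (median 1.44; 0 to 18 over alternatives), immediate early genes lower for 7 of 13 (median -2.08; 0 to 8 over alternatives), and injury genes lower for 2 of 30 (Lgals3 and Sox4). Fos was, in CPM, at 1538 in the control, 389.6, 387 and 407 on days 1, 2 and 4, 742 and 976 in the day 7 libraries, 569 and 1007 in those of day 11, and 285 and 495 in those of day 14 (log2 change -2.08, SE 0.46, adjusted p = 0.0029). Egr1 was at 1009 in the control, 395, 362 and 439.8 on days 1, 2 and 4, 539 and 827 in the day 7 libraries, 247 and 187 in those of day 11, and 108 and 212 in those of day 14 (log2 change -2.83, SE 0.50, adjusted p = 2.1e-05). Both transcription factors were lower in the 2 day 14 libraries than in the control, and both calls were lost without the first day 14 library, when 15 genes passed in all. Here too the control is 1 library. Aqp3, a water channel of the collecting duct, was at 999.5 in the control, 39.9, 20.9 and 43.3 on days 1, 2 and 4, 119 and 224 in the day 7 libraries, 152 and 261 in those of day 11, and 88.5 and 124 in those of day 14 (log2 change -3.35, SE 0.53, adjusted p = 4.3e-07). The other genes among the 12 largest differences downward were Gadd45b, Casz1, Avpr2, Scnn1g, Cald1, Rev3l, Rgs2 and Sox4, whose calls were kept in 4 (Rev3l) to 8 (Scnn1g) of 10 alternatives, and Igkc, Igha and Igj, which ranked above all of these and met the rule through the control cell rich in immunoglobulin mRNA. Those upward included Gatm, an enzyme of creatine synthesis (log2 change 2.94, SE 0.63, edgeR adjusted p = 0.0016), whose call was lost in 1 of 10 alternatives, and the sodium-coupled transporters Slc5a12 and Slc13a3, each lost in 3 of 10. Slc34a1 was higher (log2 change 1.98, SE 0.52, edgeR adjusted p = 0.021), a call lost in 3 of 10 alternatives.

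Some lists held few or no calls. Of all genes 9.62% were called between the classes and 4.48% between day 7 and the control. At such shares lists this small can hold no call by size alone, so they are not shown to be depleted. Of the renal development genes, which include Pax2, Lhx1 and Cdh6, none of 18 tested passed between cycling and non-cycling cells (median log2 change -0.24) and none of 15 between day 7 and the control. Against day 7, Tfap2b was lower on day 11 (-4.08) and Npnt on day 14 (-2.44). Glycolysis had no call among 14 genes (median 0.09) and the EGF receptor family none among 8 (median -0.28) between the classes. Over the 18 alternatives, glycolysis had 0 to 4 genes higher and 0 to 1 lower, and the EGF receptor family 0 to 1 lower. Fosl1, an AP-1 subunit, was the 1 of 16 immediate early genes higher in cycling cells (1.80, SE 0.45), a call lost in 4 of 18 alternatives, among them those without day 2 and without day 4. Immediate early genes lower numbered 0 to 5 over the alternatives, the 5 with at least 3 rule genes required.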

How the data were processed

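Drop-seq UMI counts per gene and barcode were used as the authors deposited them. The submitters' processing notes name Bowtie2 2.2.7 and the mouse build mm10, and other upstream steps are not given in the sources used here. Libraries held 7091848 to 31632205 UMIs, and cells with 500 or more genes and no more than 50% mitochondrial UMIs were kept. The members and gene lists were chosen with earlier results of these data known.

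Counts were summed per library over cycling and non-cycling cells and tested with edgeR 4.0.16 (quasi-likelihood F test, TMM, filterByExpr, Benjamini-Hochberg over all genes, threshold 0.05; 16 rule genes not counted) in R 4.3.3. Genes were tested between classes with library as a block, and between days with 1 term per group. A minimum of 20 cycling cells per library left 7 libraries, and 5 were required for comparisons with days 11 and 14 and for the interaction, after member numbers were seen. Alternatives were DESeq2 1.42.0, RLE size factors, no filter on low counts, other gates and thresholds, single libraries left out and, added after seeing the data, cells thinned to at most 5000 UMIs, non-cycling cells nearest in UMI count and the removal of cells with 50 or more immunoglobulin UMIs (at least 19 cells per library where the control was kept). The fits were tested on simulated data.

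Genes were named as the 12 per direction with the largest change past the threshold, the same sign in every library and a mean log2 CPM of 5 or more, plus up to 5 of each list by level. Genes named only as called members of a list, and Cdkn1a, Cdkn1c and Fosl1, were chosen after their values were seen. Counts for the fatty acid oxidation list are not reported here. Doublets were scored with Scrublet in scanpy 1.11.5. Intervals are 95% and, since reads carry UMIs, cover counting error only. Replicates of 1 day differed by more than sampling noise (chi-square per degree of freedom 14.5, 19.2 and 13 for days 7, 11 and 14).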

Additional observations from a re-analysis of the deposited data

Results flagged for a closer look

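For 15 genes that the choice of named genes picked out, the difference of cycling from non-cycling tubule cells itself differed between day 7 and days 11 and 14 (edgeR interaction term, adjusted over all 12005 genes, 0.325% called). The values that follow are the change in that difference on the log2 scale, negative where it was lower on day 7. No call of the 15 held under all 14 alternatives, so each is a result to look at again.

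Outside the cycle genes it was -9.55 for the carboxylesterase Ces1f, -4.97 for the amino acid transporter Slc7a13, -3.89 for Ugt3a2 and -3.62 for Pck1. It was -2.99 for Slc22a6, -2.55 for Klk1b3, -2.17 for Kap and -2.13 for the lipase Mgll. Of these, Slc7a13, Pck1, Slc22a6 and Kap were on the proximal function list. Adh1 and Btc, given below, went the other way. In CPM of cycling cells, Slc22a6 was 4.95 and 3.82 in the day 7 libraries, 133 and 186 in those of day 11, and 605 and 689.9 in those of day 14. In non-cycling cells it was 23 and 97.3 in the day 7 libraries, 380.1 and 561 in those of day 11, and 916 and 1046 in those of day 14. The 2 day 7 libraries were the lowest in both classes, and cycling cells were below non-cycling cells in all 6. Ces1f had no UMI in the cycling cells of day 7, so its fitted value depends on the prior count and is no bound.

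Among cycle genes it was -2.91 for Cdc20, -2.72 for RP23-45G16.5 and -2.36 for Prc1, all lower on day 7, and 1.77 for the kinesin Kif20b, which was higher. Cdc20 in cycling cells was 218 and 149 in the day 7 libraries, 418 and 672 in those of day 11, and 482 and 177 in those of day 14. In non-cycling cells, which by choice lack the 6 rule genes, it was 5.58 and 1.96 in the day 7 libraries, 0.896 and 0.519 in those of day 11, and 0.873 and 0.563 in those of day 14. Day 7 and days 11 and 14 overlapped in cycling cells, and in non-cycling cells both day 7 libraries were higher than the other 4.

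Btc, an EGF receptor ligand, had a value of 4.06. It was 124 and 101 in the day 7 libraries, 0 and 0 in those of day 11, and 9.83 and 0 in those of day 14 in cycling cells, with no UMI in 3 libraries, and 47.7 and 44.7 in the day 7 libraries, 42.7 and 33.9 in those of day 11, and 29.8 and 31.6 in those of day 14 in non-cycling cells. Adh1, an alcohol dehydrogenase, had 1.99. D17H6S56E-5 had -2.35, although its level in cycling cells was highest on day 7, at 1088 and 770.5 against 285 and 224 in the day 11 libraries and 39.3 and 141.5 in those of day 14. Non-cycling cells differed more, at 438 and 419 on day 7 against 29.6, 21.1, 1.61 and 5.07 in the later libraries.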

How the results depend on the processing

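The share on day 7 stayed above days 11 and 14 in all 11 alternatives each. The difference of day 11 from day 14 changed sign with a gate of Cdh16, Epcam or Havcr1 (-0.0983 percentage points), as a share of all filtered cells (-0.0541), and over leave-one-out runs, which spanned -0.167 to 0.295.

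Cycling against non-cycling cells gave 603 to 1652 genes when 1 library was left out, and 16 of 18 alternatives lay within 1.5 times of 1309. Requiring 20 cells removed the control where doublets, or cells under 2000 UMIs or with 2 rule genes, were left out, and the first day 14 library in the last. The interaction with day gave 67 genes with RLE size factors, 20 with DESeq2 and 6 to 64 with 1 library left out, against 39.

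Day 7 against the control gave 111 genes with DESeq2, 213 with cells thinned to at most 5000 UMIs and 320 with at least 5 cells per library, and from that last fit 231 without high doublet scores, 177 with at least 3 rule genes and 146 to 288 with 1 day 7 library left out, against 485. Day 14 against the control gave 29 without the filter, 19 with DESeq2, 140 without high doublet scores, 32 with at least 3 rule genes, 192 with those 2 groups alone, 35 thinned and 15 to 47 with 1 library left out, against 60. Cald1 reversed to 4.94 without high doublet scores there. Day 11 against day 7 gave 191, 163, 131 and 83 under no filter, DESeq2, at least 3 rule genes and those 2 groups alone, and 135 to 202 with 1 library left out, against 287. Day 14 against day 7 gave 414 with DESeq2 and 200 to 545 with 1 library left out, against 725. The cause of each change was not tested.

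Replicate numbers did not pair the libraries: replicate differences correlated at 0.055, 0.0362 and -0.0179 (Pearson r over 6592 genes, which are not replicates). A replicate block gave 193 genes for day 11 and 507 for day 14 against day 7. Calls between days rest on 9 to 84 cells per library and 1 to 3 residual degrees of freedom. Sums weigh large cells heavily, with up to 45.4% of UMIs in 1 cell.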

Other observations

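Cells carrying Ptprc or C1qb also met the 2-gene rule. Their share was, in percent of such cells, 3.3 in the control, 8.76, 15.9 and 15 on days 1, 2 and 4, 11.9 and 9.86 in the day 7 libraries, 7.05 and 2.5 in those of day 11, and 1.68 and 4.08 in those of day 14. It was highest on day 2, with 82 of 516 cells, and on day 4, with 163 of 1084, while the tubule share was highest on day 1. With each cell thinned to 1000 UMIs the order changed, and the first day 7 library stood highest at 11.6%, before day 4 with 10.3%, day 2 with 8.62% and the second day 7 library with 7.81%. In 9 libraries the immune share was above the tubule share of the same library, and on day 1 it was below. Cells of the endothelial genes gave 0.92 in the control, 7.8, 4.18 and 5.49 on days 1, 2 and 4, 5.52 and 1.3 in the day 7 libraries, 0.619 and 1.17 in those of day 11, and 0 and 0 in those of day 14, in percent, where the 2 zeros, 0 of 304 and 0 of 221 cells, allow shares of up to 0.987 and 1.36% at the limit of 3 cells. Differences between these classes were not tested.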
